A study of Mus musculus with 6 samples.

Results

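Other imprinted genes were followed as a group of 9: Gnas, Peg3, Usp29, Impact, Snrpn, Ndn, Plagl1, Nnat and Zrsr1. The 9 were picked by name out of 48440 genes in the count table, though with earlier results of these data known. All 9 had enough reads to be tested. They were measured by polyadenylated RNA sequencing in 6 clones of mouse iPSCs, that is pluripotent cells made by reprogramming wild-type embryonic fibroblasts of a male. The edited cells were 3 clones labelled Tet1 Cas9 mut/mut (clones 14, 30 and 33, here KO1, KO2 and KO3), and they were compared with 3 non-targeted clones (clones 49, 51 and 52, here NT1, NT2 and NT3). Every clone carries GFP/wt, a Pou5f1-EGFP transgene, with wt/wt as the other allele entry, and the strain is given by the Tet1tm1Kohx allele on B6 and by B6;CBA-Tg(Pou5f1-EGFP)2Mnn/J. All 6 descend from a single iPSC line, iPSC34.3, at passage 14 plus 4 further passages after Cas9 ribonucleoprotein, a Tet1 guide, a donor oligonucleotide and 12 h of a repair enhancer. The labels give this treatment for the non-targeted clones too. The sources used here do not give how those clones came to be unedited. The cells were expanded on fibroblast feeders and taken off them before RNA extraction.

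Imprinted genes are read mainly from the copy inherited from one parent, which is set by DNA methylation laid down in the germ line at imprinting control regions. ZFP57 and TRIM28 protect that methylation, DNMT1 copies it at replication, and TET enzymes oxidise methylcytosine, which is why Tet1 loss is of interest at these loci. Of the 9 genes, Peg3, Usp29, Impact, Snrpn, Ndn, Plagl1, Nnat and Zrsr1 are known in the mouse as genes read from the paternal copy, while Gnas is a complex locus with transcripts of maternal, paternal and both origins. The counts here do not separate the parental copies, so a level says nothing of which copy was read.

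The Tet1 row stood at 365 CPM (reads scaled to the library total with TMM factors) in KO1, 231 in KO2 and 288 in KO3, against 1158 in NT1, 966 in NT2 and 1034 in NT3. That log2 fold change of -1.84 ± 0.16 (knockout over non-targeted, with its SE) was called by DESeq2 and had an edgeR adjusted p of 0.0703, which no gene fell below. Total counts per library lay between 11937909 and 16189554. Over all genes, KO1 lay nearer to the non-targeted clones (Pearson's r of log2 CPM across genes 0.984 to 0.986) than to KO2 and KO3 (0.973 and 0.958). Results are also given without KO1 where that changes them. KO1 was singled out on these same expression values, so p-values without it are descriptions and no support for a difference. Markers of feeder fibroblasts were higher in the knockout clones, KO1 included. Of 27 tested markers, 19 lay above all non-targeted values in every knockout clone, against 14.8% of all tested genes. The median of the 27, relative to the non-targeted mean, was 0.59 in KO1, 0.79 in KO2 and 1.80 in KO3 on the log2 scale, and -0.30 in NT1, 0.17 in NT2 and 0.12 in NT3. Their summed level overlapped, at 2049 to 2604 CPM in knockout and 2071 to 2452 CPM in non-targeted clones, and of 31 markers 0 were at 0 in every library, though Fap and Tcf21 were at 0 in some. DESeq2 called 14 of the 27 higher, beside the 9.12% of all genes that it called in either direction, among them Fstl1 and Col6a2, with log2 fold changes of 0.47 ± 0.10 and 1.28 ± 0.28. The median of the 14 pluripotent cell markers was -0.061 in KO1, -0.51 in KO2 and -1.17 in KO3, and 0.11 in NT1, -0.12 in NT2 and 0.036 in NT3. Pou5f1, which defines pluripotent cells, was present in all libraries, at 675 to 692 CPM in knockout and 744 to 849 CPM in non-targeted clones. All 14 had fold changes below 0 and DESeq2 called 0 of them, with -0.35 ± 0.13 for Dppa4 and -0.19 ± 0.071 for Pou5f1 on the log2 scale. In such bulk libraries fewer cells of a type and less RNA per cell cannot be told apart, and the part of these marker shifts in the results below was not tested.

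Among the 9 imprinted genes, Gnas was higher in each knockout clone, with a mean of 251 against 121 CPM, and Ndn was slightly higher in each of them. Snrpn values were lower in each knockout clone, KO1 only just, but on few reads and from a row that misses most of its exons. Plagl1 was high in a single knockout clone. Peg3, Usp29, Impact, Nnat and Zrsr1 overlapped between the groups. edgeR's quasi-likelihood test, adjusted over 14664 genes (Benjamini-Hochberg), called 0 of the 9, as it called 0% of all genes. At an unadjusted p under 0.05, it picked 3 of the 9 and 24.8% of all genes. DESeq2 called Gnas alone, 1 of the 9, against 9.12% of the 13677 genes to which it gave an adjusted p. All 3 knockout values lay above all 3 non-targeted values for 2 of the 9 (Gnas and Ndn), against 14.8% of all tested genes. For 1 of the 9 (Snrpn) all knockout values lay below, against 14.7% of all tested genes. The log2 fold changes of the 9 were above 0 for 4 and below 0 for 5, with a median of -0.089 beside a median of 0.0021 over all tested genes. Without KO1, edgeR called 3 of the 9 (Gnas, Snrpn and Plagl1), but it then called 29.1% of 15140 tested genes too.

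**Figure D1:**
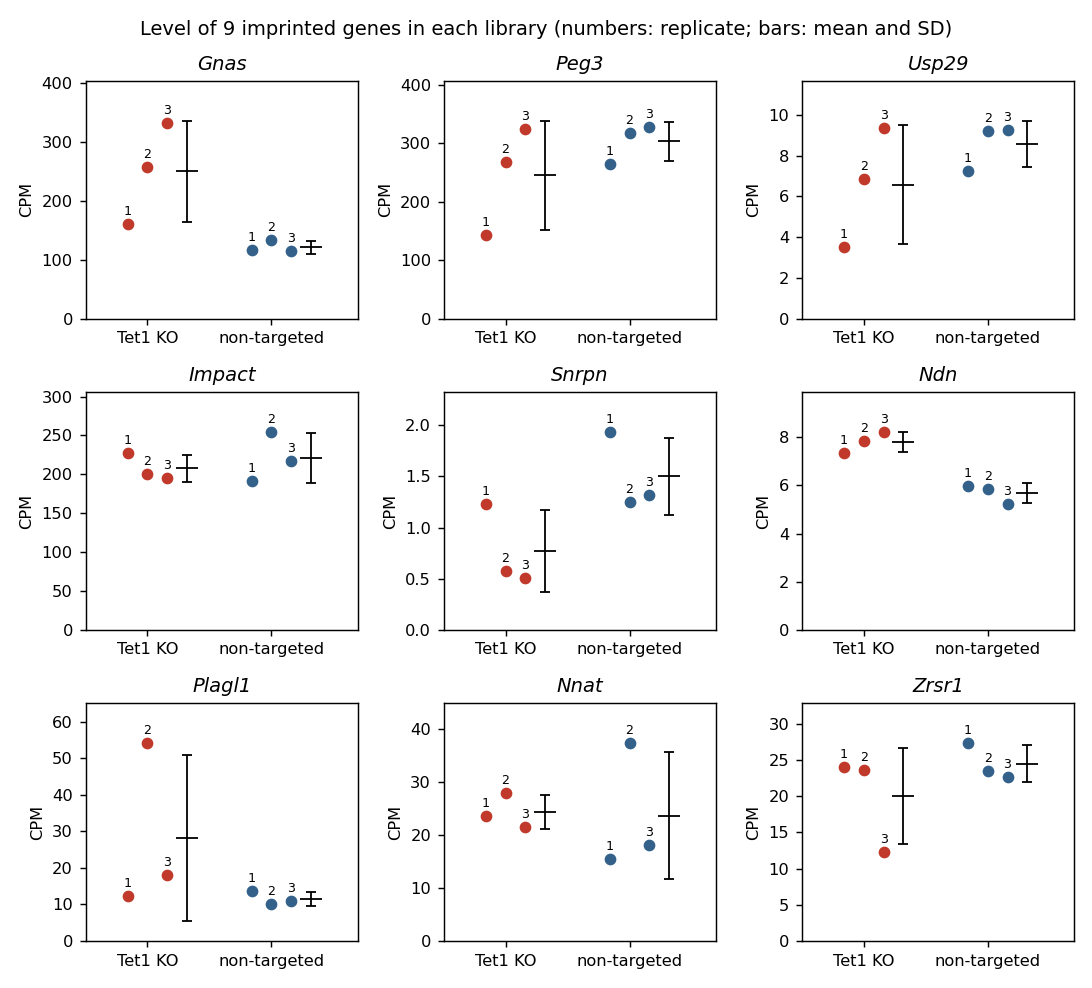
Level of each gene in CPM (y axis, from 0) in the 3 Tet1 knockout clones (red) and the 3 non-targeted clones (blue), with the clone number (KO1 to KO3, NT1 to NT3) above each point and the mean and SD beside each group. Gnas and Ndn lie higher and Snrpn lower in every knockout clone (for Snrpn, KO1 only just and on few reads). Plagl1 stands out in KO2, and Peg3 and Usp29 are low in KO1.

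**Figure D2:**
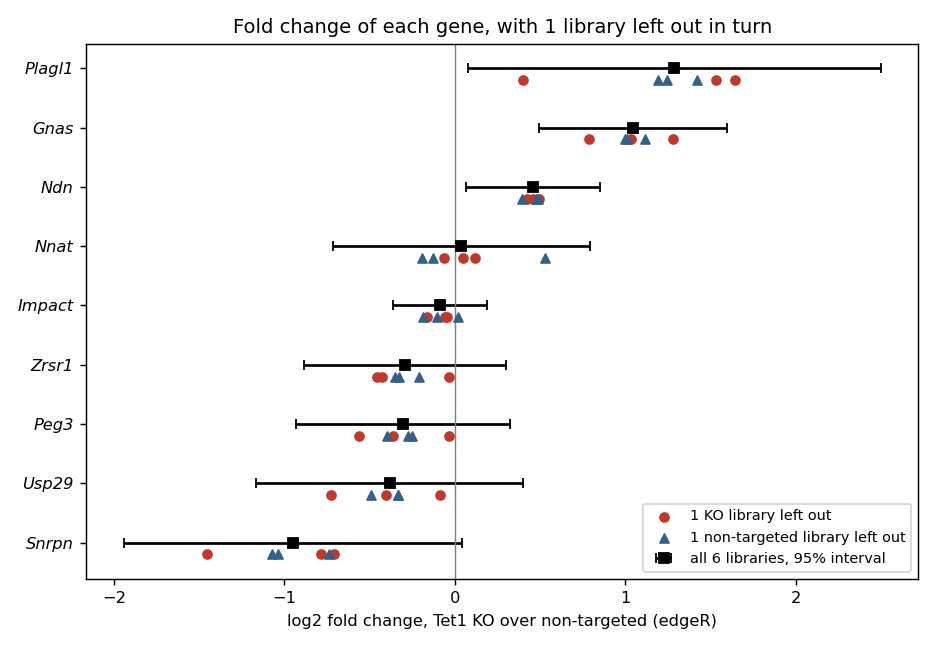
Log2 fold change of each gene (x axis, Tet1 knockout over non-targeted, edgeR), with all 6 libraries (black squares, 95% interval) and with 1 knockout library (red circles) or 1 non-targeted library (blue triangles) left out. Gnas stays between 0.79 and 1.28, whereas Plagl1 drops to 0.40 when KO2 is left out.

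Gnas (ENSMUSG00000027523.19, chr2:174284320-174346744, plus strand, GRCm38) codes for the stimulatory G protein alpha subunit Gs-alpha, which switches on adenylyl cyclase. The locus also makes NESP55 from an upstream start, the extra-large variant XL-alpha-s, and the noncoding exon 1A transcript that begins just before the Gs-alpha start. RefSeq (GRCm38.p6) gives 4 start windows for it, each of 250 bases before to 50 after the start, and 3 are shown because the deposited row sums all transcripts of the locus and cannot say which start the reads came from. The first is the NESP55 start at 174284320, the next the exon 1A start at 174327749, and the last the Gs-alpha start at 174330006, which lies 2257 bases after the exon 1A start. The remaining window begins only slightly after the exon 1A window shown.
Gnas NESP55 start, chr2:174284070-174284369, plus strand: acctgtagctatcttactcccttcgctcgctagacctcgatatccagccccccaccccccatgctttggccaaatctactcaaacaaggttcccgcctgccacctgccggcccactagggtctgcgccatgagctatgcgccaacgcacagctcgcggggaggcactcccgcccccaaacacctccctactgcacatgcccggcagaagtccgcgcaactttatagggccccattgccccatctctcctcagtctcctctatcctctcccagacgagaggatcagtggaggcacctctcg
Gnas exon 1A start, chr2:174327499-174327798, plus strand: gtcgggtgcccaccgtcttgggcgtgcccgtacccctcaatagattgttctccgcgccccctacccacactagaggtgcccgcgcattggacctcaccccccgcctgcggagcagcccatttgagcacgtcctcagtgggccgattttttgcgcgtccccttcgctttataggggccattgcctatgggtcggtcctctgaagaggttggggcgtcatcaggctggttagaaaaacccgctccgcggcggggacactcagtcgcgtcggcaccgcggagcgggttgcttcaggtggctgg
Gnas Gs-alpha start, chr2:174329756-174330055, plus strand: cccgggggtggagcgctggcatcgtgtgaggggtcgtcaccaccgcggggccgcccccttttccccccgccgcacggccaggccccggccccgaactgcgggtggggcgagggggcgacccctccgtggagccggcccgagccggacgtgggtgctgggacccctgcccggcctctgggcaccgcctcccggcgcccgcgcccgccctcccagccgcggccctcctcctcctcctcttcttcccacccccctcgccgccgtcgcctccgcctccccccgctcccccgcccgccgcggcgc
The windows hold 16, 27 and 40 CpG dinucleotides, against a median of 7 in the 32851 RefSeq windows of the mouse. The Gs-alpha window has more CpG than 96.1% of all windows. None of the 3 holds TGCCGC on either strand, the core letters bound by ZFP57 when methylated, which 11.6% of all windows hold. That says only that these letters are not in these windows.

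Gnas had 161 CPM in KO1, 258 in KO2 and 333 in KO3, against 116 in NT1, 134 in NT2 and 114 in NT3. Each knockout clone was higher than each non-targeted clone, and the knockout clones differed among themselves far more than the non-targeted clones did. The group means were 251 ± 85.9 CPM in knockout and 121 ± 10.7 CPM in non-targeted clones (SD, n = 3 each). This was a log2 fold change of 1.05 ± 0.24 (SE), with a 95% interval of 0.49 to 1.60. It missed the threshold in edgeR (adjusted p = 0.109), where Gnas ranked 348th of 14664 genes by p, and passed it in DESeq2 (adjusted p = 0.00158). With no filter on low counts, edgeR also called it (adjusted p = 0.0439). Without KO1 the log2 fold change was 1.28 (edgeR adjusted p = 0.000385), and without KO3 it was 0.79 (edgeR adjusted p = 0.224). DESeq2 lost the call without NT3 (adjusted p = 0.066). The knockout order, lowest in KO1 and highest in KO3, was also the order of the fibroblast marker medians above, and of Peg3, Usp29 and Ndn. Among the non-targeted clones both Gnas and the marker median were highest in NT2, but Gnas was lowest in NT3 and the median in NT1. A link between them was not tested.

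Nespas (chr2:174281237-174295436, minus strand), the antisense transcript that overlaps the NESP55 start and is known as a gene read from the paternal copy, did not follow Gnas. Nespas had 25.5 CPM in KO1, 9.10 in KO2 and 10.2 in KO3, against 26.3 in NT1, 26.8 in NT2 and 25.0 in NT3. KO1 was close to the non-targeted clones and inside their range, and KO2 and KO3 lay well below. The groups therefore overlapped, and the log2 fold change of -0.80 ± 0.37 missed the threshold (edgeR adjusted p = 0.224; DESeq2 adjusted p = 0.129). The number of Gnas reads per Nespas read was 6.34 in KO1, 28.3 in KO2 and 32.6 in KO3, against 4.40 in NT1, 4.99 in NT2 and 4.56 in NT3. The libraries were counted by strand, so the overlapping stretch was assigned to one gene or the other. Beside the domain, Npepl1, an aminopeptidase gene, had a log2 fold change of 0.28 ± 0.13, and Nelfcd, a subunit of the negative elongation factor, one of -0.17 ± 0.092 (edgeR adjusted p = 0.211 and 0.295).

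**Figure D3:**
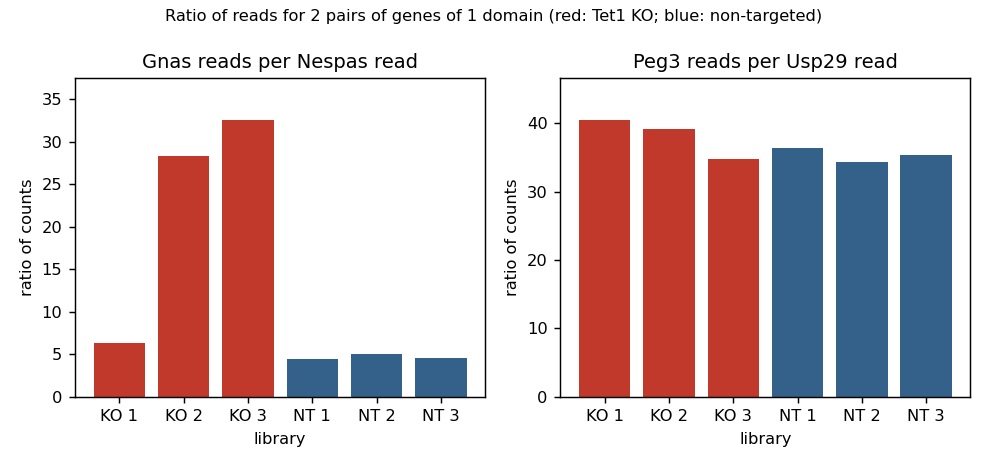
Ratio of read counts in each library for Gnas over Nespas (left) and Peg3 over Usp29 (right), with the y axis from 0, Tet1 knockout in red and non-targeted (NT) in blue. The Gnas to Nespas ratio is 28.3 and 32.6 in KO2 and KO3 and at most 6.34 elsewhere, while the Peg3 to Usp29 ratio stays between 34.4 and 40.5.

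Genes around Gs-alpha signalling and cyclic AMP were counted as a group of 59, of which 49 were tested. Their log2 fold changes were above 0 for 34 and below 0 for 15, with a median of 0.13, beside 7371 above and 7293 below over all tested genes. DESeq2 called 6 higher (Adcy6, Adcy9, Crtc3, Gnb4, Pde3b and Pde7a) and 1 lower (Sik1) of the 49, beside 9.12% of all genes. edgeR called 0. Adcy9, an adenylyl cyclase, had 4.83 CPM in KO1, 5.21 in KO2 and 3.52 in KO3, against 2.34 in NT1, 1.75 in NT2 and 1.88 in NT3. Every knockout clone was higher, and the log2 fold change was 1.19 ± 0.26 (DESeq2 adjusted p = 0.0159). Crtc3, a coactivator of CREB, had 6.82 CPM in KO1, 5.38 in KO2 and 8.99 in KO3, against 3.31 in NT1, 3.06 in NT2 and 3.61 in NT3 (DESeq2 adjusted p = 0.0115 at a log2 fold change of 1.09 ± 0.24). Over the 6 libraries, log2 CPM was compared with that of Gnas for 12364 tested genes with a mean of at least 1 CPM. Predicted gene models (names of Gm and digits, or ending in Rik) were left out of this set. The most like Gnas were Fat4 (Pearson's r 0.998), Pja1 (0.998) and Surf4 (0.998). Pearson's r does not compare the size of a change. Fat4 had few reads, at 0.767 to 4.60 CPM in knockout and 0.242 to 0.437 CPM in non-targeted clones. Pja1 was at 39.8 to 53.0 CPM in knockout and 35.4 to 38.2 CPM in non-targeted clones, and Surf4 at 133 to 189 and 107 to 120 CPM. These likenesses are descriptions, and the libraries share any difference in cell makeup.

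Peg3 (ENSMUSG00000002265.16, chr7:6703892-6730431, minus strand) codes for a large zinc finger protein, and Usp29 (ENSMUSG00000051527.11, chr7:6730578-6967219, plus strand) for a ubiquitin-specific protease. They start head to head, and their start windows share 263 bases with the starts 164 bases apart, so 1 window, on the Peg3 strand, shows most of the promoter of both.
Peg3 start, chr7:6730370-6730669, minus strand: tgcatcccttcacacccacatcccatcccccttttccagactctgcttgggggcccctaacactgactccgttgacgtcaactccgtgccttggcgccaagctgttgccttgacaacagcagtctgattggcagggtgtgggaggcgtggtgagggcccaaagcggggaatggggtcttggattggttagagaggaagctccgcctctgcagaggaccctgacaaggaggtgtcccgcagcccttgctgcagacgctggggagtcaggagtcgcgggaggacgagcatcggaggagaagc
This window holds 13 CpG dinucleotides and the Usp29 window 17, and neither holds TGCCGC on either strand.

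Peg3 had 143 CPM in KO1, 269 in KO2 and 325 in KO3, against 265 in NT1, 318 in NT2 and 328 in NT3. KO1 was low and the other two knockout clones lay within the range of the non-targeted clones. Usp29 had 3.53 CPM in KO1, 6.87 in KO2 and 9.35 in KO3, against 7.26 in NT1, 9.23 in NT2 and 9.24 in NT3. The same clone was the low one, KO2 was slightly under the non-targeted range, and KO3 slightly over it. Reads that fell in 8 small models inside Usp29, which take 4.46% of its body, were not counted. The log2 fold change was -0.30 ± 0.27 for Peg3 and -0.38 ± 0.34 for Usp29 (edgeR adjusted p = 0.501 and 0.500). Without KO1 they were -0.035 and -0.086 (edgeR adjusted p = 0.846 and 0.799). Of 12364 genes picked by the same rule, Usp29 was the most like Peg3 over the 6 libraries (Pearson's r 0.995). Next came Pard6a (0.983) and Eif3l (0.976). The reads per Usp29 read stayed close, at 40.5 Peg3 reads in KO1, 39.2 in KO2 and 34.8 in KO3, against 36.5 in NT1, 34.4 in NT2 and 35.4 in NT3.

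Other genes of the Peg3 domain had patterns of their own. Zfp264, which lies beyond Usp29 and is annotated as a pseudogene in GENCODE M21, had 7.51 CPM in KO1, 4.80 in KO2 and 1.37 in KO3, against 11.6 in NT1, 7.92 in NT2 and 10.6 in NT3. All knockout clones were lower, and KO3 was the lowest, but the log2 fold change of -1.14 ± 0.51 missed the threshold (edgeR adjusted p = 0.214; DESeq2 adjusted p = 0.115). Zim1, a zinc finger gene, had 0.537 CPM in KO1, 0.579 in KO2 and 1.29 in KO3, against 0.888 in NT1, 1.19 in NT2 and 1.25 in NT3. It was low in KO1 and KO2 and overlapped through KO3 (log2 fold change -0.45 ± 0.43, edgeR adjusted p = 0.529). Zim3, at 0.248 to 0.613 CPM in knockout and 0.437 to 0.807 CPM in non-targeted clones, was too low to be tested.

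Snrpn (ENSMUSG00000102252.5, chr7:59982495-60140219, minus strand) codes for SmN, a core protein of spliceosomal particles, and its start region is the imprinting control region of the domain that also holds Ndn, Magel2 and Snhg14. The major RefSeq start window is shown because it holds the ZFP57 core letters, given in capitals as they read on this strand (GCGGCA, the reverse complement of TGCCGC).
Snrpn start, chr7:60005150-60005449, minus strand: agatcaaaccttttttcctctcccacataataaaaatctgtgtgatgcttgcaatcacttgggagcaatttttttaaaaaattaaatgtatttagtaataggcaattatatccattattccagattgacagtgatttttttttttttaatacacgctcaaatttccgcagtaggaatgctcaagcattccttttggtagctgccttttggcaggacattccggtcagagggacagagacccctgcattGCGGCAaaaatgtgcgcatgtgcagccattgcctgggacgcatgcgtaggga
The window holds 7 CpG dinucleotides, the median of all windows. Over the 8 of the 9 genes whose RefSeq windows were used (all but Impact), 3 of 14 windows held TGCCGC, against 11.6% of all windows. A match is a description of the letters, not a binding site.

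The deposited Snrpn row does not measure SmN messenger RNA. Reads that overlap several gene models were left out, and 14.3% of the Snrpn body, from its 3′ end up to the major start, is shared with the models Gm38393 and Snurf. That stretch holds 87.3% of the merged exon bases of Snrpn in GENCODE M21, all of its coding exons among them. What was counted lies at 60005065 to 60140219, before and around the start. Snrpn so counted had 16 reads in KO1, 7 in KO2 and 7 in KO3, against 24 in NT1, 20 in NT2 and 19 in NT3. On the CPM scale this was 1.23 in KO1, 0.579 in KO2 and 0.503 in KO3, and 1.94 in NT1, 1.25 in NT2 and 1.32 in NT3. All knockout clones were lower, KO1 only just. The log2 fold change of -0.95 ± 0.42 missed the threshold (edgeR adjusted p = 0.215; DESeq2 adjusted p = 0.299). Without KO1 it was -1.45 (edgeR adjusted p = 0.0387), a call that DESeq2 did not make in the same libraries (adjusted p = 0.107). Gm38393, the model that spans the shared stretch, was counted over 6598 bases of its own and had 20.9 CPM in KO1, 36.1 in KO2 and 28.3 in KO3, against 21.4 in NT1, 22.5 in NT2 and 13.8 in NT3. It overlapped between groups (log2 fold change 0.56 ± 0.25, edgeR adjusted p = 0.213). Snurf lies wholly within other models and is listed at 0.

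Ndn (ENSMUSG00000033585.5, chr7:62346569-62350262, plus strand) codes for necdin, a MAGE family protein of neurons and progenitor cells. Ndn had 7.36 CPM in KO1, 7.86 in KO2 and 8.20 in KO3, against 5.97 in NT1, 5.86 in NT2 and 5.21 in NT3. The groups did not overlap and both were narrow, with means of 7.81 ± 0.42 CPM in knockout and 5.68 ± 0.41 CPM in non-targeted clones (SD, n = 3 each). The log2 fold change of 0.46 ± 0.17, with a 95% interval of 0.065 to 0.85, missed the threshold in both tools (edgeR adjusted p = 0.162; DESeq2 adjusted p = 0.185). It lay between 0.39 and 0.49 with any 1 library left out.

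Several neighbours of Snrpn and Ndn were higher in KO2 and KO3. Snhg14, the long host transcript of the small nucleolar RNAs of the domain, had 18.9 CPM in KO1, 32.9 in KO2 and 27.8 in KO3, against 16.1 in NT1, 18.5 in NT2 and 10.4 in NT3. All knockout clones were higher, KO1 only just, and DESeq2 called the log2 fold change of 0.82 ± 0.27 (adjusted p = 0.0431) where edgeR did not (adjusted p = 0.142). Magel2, a MAGE family gene of the hypothalamus, had 0.537 CPM in KO1, 4.47 in KO2 and 3.31 in KO3, against 0.403 in NT1, 1.06 in NT2 and 0.487 in NT3. KO1 did not stand apart from the non-targeted clones, and the log2 fold change of 2.04 ± 0.74 missed the threshold (edgeR adjusted p = 0.160; DESeq2 adjusted p = 0.0642). Peg12 and Atp10a, which codes for a lipid flippase, also overlapped between the groups through KO1. Their log2 fold changes were 0.92 ± 0.35 and 1.18 ± 0.49 (edgeR adjusted p = 0.166 and 0.192). Ube3a, the ubiquitin ligase read from the maternal copy in neurons, had a log2 fold change of 0.23 ± 0.14 (edgeR adjusted p = 0.332), and Mkrn3 is listed at 0.

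**Figure D4:**
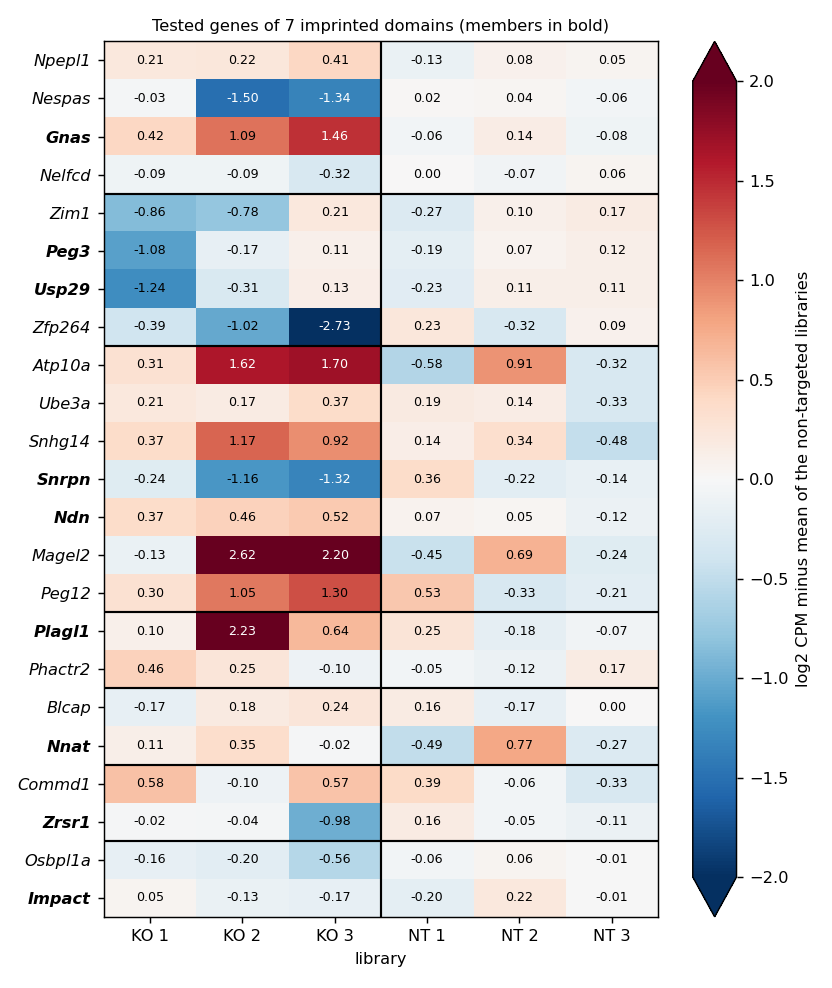
Log2 CPM of the tested genes of the 7 domains in each library, minus the mean of the non-targeted libraries (numbers in the cells; red higher, blue lower, colours end at 2 in either direction), with Tet1 knockout on the left and non-targeted (NT) on the right and the 9 genes in bold. Gnas, Snhg14, Magel2, Peg12 and Atp10a are highest in KO2 and KO3, where Nespas is at -1.50 and -1.34, and Peg3 and Usp29 are lowest in KO1.

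Plagl1 (ENSMUSG00000019817.18, chr10:13060504-13131694, plus strand) codes for ZAC1, a zinc finger transcription factor that restrains the cell cycle and acts on other imprinted genes. Its RefSeq start window is shown because its level differed most between clones; the capitals mark GCGGCA, as above.
Plagl1 start, chr10:13090582-13090881, plus strand: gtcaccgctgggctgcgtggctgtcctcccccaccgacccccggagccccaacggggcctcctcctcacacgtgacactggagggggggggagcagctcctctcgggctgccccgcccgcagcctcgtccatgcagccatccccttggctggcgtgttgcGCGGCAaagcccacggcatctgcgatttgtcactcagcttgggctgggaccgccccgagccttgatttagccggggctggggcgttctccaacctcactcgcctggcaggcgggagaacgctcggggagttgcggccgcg
The window holds 26 CpG dinucleotides. Plagl1 had 12.3 CPM in KO1, 54.2 in KO2 and 17.9 in KO3, against 13.6 in NT1, 10.04 in NT2 and 10.8 in NT3. KO2 stood far above every other library, KO3 was slightly above the non-targeted clones, and KO1 lay among them. The log2 fold change of 1.29 ± 0.52 missed the threshold (edgeR adjusted p = 0.182; DESeq2 adjusted p = 0.0549). Without KO2 it was 0.40 (edgeR adjusted p = 0.423), and without KO1 it was 1.64 (edgeR adjusted p = 0.0156). Phactr2, which borders Plagl1, had a log2 fold change of 0.22 ± 0.21 (edgeR adjusted p = 0.543).

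Nnat (ENSMUSG00000067786.16, chr2:157560078-157562522, plus strand) codes for neuronatin, a small membrane protein, and lies within an intron of Blcap on the opposite strand. Nnat had 23.7 CPM in KO1, 27.9 in KO2 and 21.6 in KO3, against 15.5 in NT1, 37.4 in NT2 and 18.1 in NT3. The knockout values fell inside the non-targeted range, and the odd library was NT2. For Nnat the log2 fold change was 0.038 ± 0.32, with a 95% interval of -0.72 to 0.79 (edgeR adjusted p = 0.953). Blcap varied less, at 25.1 to 33.1 CPM in knockout and 25.1 to 31.5 CPM in non-targeted clones. The number of Nnat reads per Blcap read was 0.945 in KO1, 0.873 in KO2 and 0.651 in KO3, against 0.492 in NT1, 1.49 in NT2 and 0.640 in NT3. NT2 had the highest ratio and NT1 the lowest.

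Zrsr1 (ENSMUSG00000044068.6, chr11:22973215-22976496, plus strand) is a retrogene related to the splicing factor U2AF1, set in an intron of Commd1 on the opposite strand. Zrsr1 had 24.1 CPM in KO1, 23.7 in KO2 and 12.3 in KO3, against 27.4 in NT1, 23.5 in NT2 and 22.6 in NT3. KO1 and KO2 lay within the non-targeted range, and KO3 was low. The log2 fold change was -0.29 ± 0.25 (edgeR adjusted p = 0.495), and without KO3 it was -0.035 (edgeR adjusted p = 0.923). Commd1, read at 1.57 to 2.61 CPM in knockout and 1.32 to 2.26 CPM in non-targeted clones, did not share the low value. The model Gm28048 also lies antisense to Zrsr1, on the strand of Commd1. Any reads that overlapped both models were left out, so the Commd1 row may miss a part of its reads. Among 20 tested rows of Sm proteins and U2AF partners, 7 were above 0 and 13 below, with a median of -0.016. DESeq2 called 1 of the 20 (9.12% of all genes), Snrpd2, a core Sm protein, which had 79.6 CPM in KO1, 76.0 in KO2 and 77.0 in KO3, against 99.5 in NT1, 93.4 in NT2 and 104 in NT3 (DESeq2 adjusted p = 0.0185 at a log2 fold change of -0.35 ± 0.077). For Zcrb1, a protein of the minor spliceosome, it was 0.47 ± 0.14 (DESeq2 adjusted p = 0.0573).

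Impact (ENSMUSG00000024423.5, GRCm38 chromosome 18, 12972252 to 12992948, plus strand) codes for a protein that restrains the kinase GCN2 by competing for GCN1. Impact had 228 CPM in KO1, 201 in KO2 and 195 in KO3, against 191 in NT1, 255 in NT2 and 217 in NT3. The groups overlapped, and Impact had the narrowest 95% interval of the 9 (-0.36 to 0.19 around a log2 fold change of -0.089 ± 0.12, edgeR adjusted p = 0.665). Of 16 tested genes of the integrated stress response, 8 were above 0 and 8 below, with a median of -0.0037. DESeq2 called 1 of the 16 (9.12% of all genes), Phgdh, the first enzyme of serine synthesis, which had 80.5 CPM in KO1, 102 in KO2 and 103 in KO3, against 63.8 in NT1, 76.0 in NT2 and 68.0 in NT3 (DESeq2 adjusted p = 0.0385 at a log2 fold change of 0.46 ± 0.12). For Psat1, which acts in the same pathway, it was 0.21 ± 0.071 (DESeq2 adjusted p = 0.156). Of the genes beside Impact, Osbpl1a, an oxysterol binding protein gene, was lower in all knockout clones with a log2 fold change of -0.30 ± 0.13 (edgeR adjusted p = 0.196), and Hrh4, at 0 to 0.0767 CPM in knockout and 0 to 0.125 CPM in non-targeted clones, was too low to be tested.

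Levels of different genes were compared per length, as CPM per kilobase of the merged exons (GENCODE M21) that lie inside the counted gene body. This leaves out a part of the exons of Impact, with 4149 of 5129 bases used, and of Zrsr1, with 3282 of 4492. By the median over 6 libraries the order was Impact at 50.4, Peg3 at 22.01, Gnas at 13.2, Nnat at 12.4, Zrsr1 at 7.19, Ndn at 1.80, Plagl1 at 1.66 and Usp29 at 0.456 CPM per kilobase. The ranges over the libraries did not overlap between Impact and Peg3, between Nnat and Zrsr1, between Zrsr1 and Ndn or between Plagl1 and Usp29. They did overlap between Peg3 and Gnas, between Gnas and Nnat and between Ndn and Plagl1. Reads in introns were counted too, which raises the level of a gene with long introns such as Usp29. Merged exons, 18078 bases for Usp29 and 11186 for Gnas, can be longer than any messenger RNA of the gene, which lowers it. The net effect of both on the levels and on the order was not tested. Snrpn is left out of the order because most of its exons were not counted.

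Of factors that protect, write or remove imprint methylation, 30 were tested, with 11 above 0 and 19 below and a median log2 fold change of -0.087. DESeq2 called 1 higher (Tet3) and 3 lower (Tet1, Dnmt3l and Trim28) of the 30, beside 9.12% of all genes. Tet1 is the edited gene, so its place among the 19 below 0 and among the calls follows from the choice of clones. Trim28, the corepressor that acts with ZFP57, had 2193 CPM in KO1, 2158 in KO2 and 1780 in KO3, against 2688 in NT1, 2429 in NT2 and 2971 in NT3. All knockout clones were lower, with a log2 fold change of -0.40 ± 0.11 that DESeq2 called (adjusted p = 0.0391) and edgeR did not (adjusted p = 0.120). For Dnmt3l, which helps the de novo methyltransferases, it was -0.50 ± 0.13 (DESeq2 adjusted p = 0.0227), and for Dnmt1 -0.31 ± 0.082 (DESeq2 adjusted p = 0.0517). Zfp57 had 283 CPM in KO1, 191 in KO2 and 133 in KO3, against 292 in NT1, 233 in NT2 and 283 in NT3, with a log2 fold change of -0.41 ± 0.25 (edgeR adjusted p = 0.326). Dppa3, which guards imprints in the early embryo, overlapped between the groups with a log2 fold change of -0.43 ± 0.28 (edgeR adjusted p = 0.370).

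Imprinted genes outside these domains were set beside the 9 by counts. Whether each of them is imprinted in these cells was not tested. Of 58 listed, 43 were tested, with 28 above 0 and 15 below and a median of 0.27, against a median of -0.089 for the 9. DESeq2 called 6 of them higher (Dlk1, Gatm, Igf2, Pon2, Sfmbt2 and Zdbf2) and 2 lower (Dio3 and Mest), beside 9.12% of all genes. Zdbf2, a gene read from the paternal copy, had 255 CPM in KO1, 280.1 in KO2 and 314 in KO3, against 224 in NT1, 216 in NT2 and 201 in NT3 (DESeq2 adjusted p = 0.0230 at a log2 fold change of 0.40 ± 0.093). Dio3, a deiodinase gene, had 2.30 CPM in KO1, 2.23 in KO2 and 2.01 in KO3, against 4.36 in NT1, 4.18 in NT2 and 5.07 in NT3 (DESeq2 adjusted p = 0.0182 at a log2 fold change of -1.05 ± 0.22). Of the 14 tested neighbours in the domains of the 9, 9 were above 0 and 5 below with a median of 0.23, and DESeq2 called 1 of the 14, Snhg14. Markers of other cell types were counted in the same way and read beside the same 9.12%. Among neural markers 8 of 11 tested were above 0, with Msi1 called higher and Pax6 called lower by DESeq2. Among primitive endoderm markers 9 of 13 were above 0, with 5 called higher by DESeq2, including Col4a1 and Col4a2. Pdgfra and Sparc are also on the fibroblast list, and Pdgfra is counted as called in both lists. Among trophoblast markers 6 of 9 were above 0, with 1 called higher, Eomes. Krt8, another trophoblast marker, had a log2 fold change of 1.63 ± 0.64 that missed the threshold (DESeq2 adjusted p = 0.179). Their part in the levels of the imprinted genes was not tested.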

How the data were processed

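The authors deposited raw read counts for 48440 genes in 6 libraries. Per the file headers, featureCounts 1.6.2 counted reads by strand over whole gene bodies (GENCODE M15, GRCm38.p5), leaving out reads that mapped to several places or overlapped several genes. HISAT2 2.1.0 and mm10, featureCounts as version 1.5.3, and DESeq2 1.18.1 are named in the submitters' processing notes. From the deposited counts, 14664 genes passed edgeR's filterByExpr (minimum count 10, minimum total 15) and were compared with edgeR 4.0.16's quasi-likelihood test on TMM factors, with group as the only term, in R 4.3.3. P-values were adjusted by Benjamini-Hochberg over all genes tested, at 0.05. DESeq2 1.42.0, limma 3.58.1 voom, edgeR with RLE factors, without the filter, with the replicate number as a block, or without each library in turn were alternatives. DESeq2 without each library and edgeR's newer quasi-likelihood method were added after seeing the data. The replicates are clones of 1 parental line, and p-values speak of their spread alone. The genes and lists were chosen with earlier results of these data known. Named were the 9 genes, Tet1, all their listed neighbours with a count, the 2 genes of smallest edgeR p per other list plus Trim28, Zfp57, Dppa3 and Dnmt1, and the 3 genes most like Gnas and Peg3. Exceptions, chosen after their values were seen, are Gm38393 and the other listed genes that DESeq2 called (Tet3, Adcy6, Gnb4, Pde3b, Pde7a, Sik1, Dlk1, Gatm, Igf2, Pon2, Sfmbt2 and Mest), along with Snurf and Mkrn3, which are at 0. Of 48440 genes, 48058 were found in GENCODE M21, whose exons gave the lengths, and 87.7% had the same start and end there. RefSeq start windows (GRCm38.p6) were used for 8 of the 9 genes. Windows on chromosome 18, where Impact lies, were left out for the 9.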

Additional observations from a re-analysis of the deposited data

How the results depend on the processing

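Of 171 fold changes of the 9 genes under alternatives, 152 kept their direction and their side of the threshold. The number called was 0 with RLE factors, limma voom, either quasi-likelihood method or the replicate block, 1 (Gnas, log2 fold change 1.04) with no filter on low counts, 1 (Gnas, 1.04) with DESeq2, and 0 to 3 with a library left out. With any 1 library left out, the log2 fold change in edgeR ranged from 0.79 to 1.28 for Gnas, -1.45 to -0.71 for Snrpn and 0.40 to 1.64 for Plagl1. In DESeq2 it ranged from 0.78 to 1.28 for Gnas (1.03 without KO2, 1.01 without NT1, 1.11 without NT2), -1.48 to -0.73 for Snrpn and 0.39 to 1.64 for Plagl1. Impact ranged from -0.19 to 0.021 and turned above 0 without NT2 (0.021 in edgeR, 0.017 in DESeq2). Nnat ranged from -0.20 to 0.53 and turned below 0 without KO2 (-0.062 in edgeR, -0.068 in DESeq2), NT1 (-0.19 and -0.20) or NT3 (-0.13 in both). The cause was not tested. Genes without overlap between groups numbered 3 with RLE factors (29.6% of all tested genes) and 3 to 4 with a library left out (35.2% to 58.3% of all tested genes). Over all genes, edgeR called 0, but 159 with no filter, 3 with the replicate block and 4404 without KO1, limma voom called 1 and DESeq2 1247. The labels state no pairing of the clones by replicate number. The correlation of deviations was 0.46 for number 1, but 0.11 and -0.024 for numbers 2 and 3. With the replicate numbers as a block Gnas was at 0.99 (edgeR adjusted p = 0.0794). The planned legacy setting is edgeR's installed default and so repeats the main fit. Its values had to be the same, and they are counted among the 152. Few reads limit Snrpn (30 in knockout and 63 in non-targeted clones) and Usp29 (259 and 371).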
